A study of Mus musculus with 4 samples.

Results

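The protein kinases that carry cells through mitosis were described here through 10 genes in the testes of young mice: *Cdk1*, its inhibitory kinases *Wee1* and *Pkmyt1*, the Polo kinases *Plk1* and *Plk4*, the Aurora kinases *Aurka*, *Aurkb* and *Aurkc*, *Nek2* and *Melk*. The members were chosen by name, and each of the 10 names matched 1 of the 55820 loci in the deposited table. Whole testes were taken at P10 (post natal day 10) from male C57BL/6J mice, and 2 control and 2 Mps1sKO libraries were compared. In Mps1sKO mice some exons of a floxed *Mps1* gene (*Ttk*) are deleted, with a frameshift, by *Stra8*-cre. This cre is active in germ cells from P3, whereas the cells around them keep these exons. The control carries the label "control" only, and its alleles are not given in the sources used here. The samples are named biological replicates, but it is not said if a library holds 1 mouse or several.

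Entry into mitosis depends on CDK1 bound to a B-type or A-type cyclin. WEE1 and PKMYT1 (also called MYT1) hold CDK1 inactive by phosphorylation, and CDC25 phosphatases remove that brake. PLK1 and the Aurora kinases then act on centrosomes, spindle and kinetochores, PLK4 starts the duplication of centrioles, and NEK2 loosens the link between the centrosomes. In the testis of this age, dividing cells include spermatogonia, germ cells that enter meiosis and Sertoli cells that still multiply, so the same kinases are used by germ cells and by somatic cells.

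The counts of the 4 libraries summed to between 23311689 and 28607746. Levels are given as CPM (the count scaled to the library total, after TMM correction of that total), and differences as log2 fold changes of Mps1sKO relative to control with the standard error (SE) and 95% interval from edgeR's quasi-likelihood test. Adjusted p-values are those of Benjamini and Hochberg over the 20561 loci that passed the filter on low counts. With 2 libraries against 2, an exact permutation test cannot go below p = 0.333, so every p-value is from a model fitted to the whole table. The targeted gene itself had levels of 27.9 and 32.6 CPM in control and of 13.0 and 12.2 CPM in Mps1sKO libraries. Its log2 fold change was −1.26 (adjusted p = 0.0461 from edgeR).

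All 10 kinase genes passed the filter on low counts. Together they summed to 293.7 and 307.4 CPM in control and to 259.8 and 276.4 CPM in Mps1sKO libraries, so the Mps1sKO mean was 89.2% of control. The log2 fold change was negative for 8 genes and positive for *Cdk1* and *Pkmyt1*, with a median of −0.26, whereas the median of all loci tested was 0.00027. In 6 genes (*Plk4*, *Aurka*, *Aurkb*, *Aurkc*, *Nek2* and *Melk*) both Mps1sKO libraries lay below both control libraries, as they did for 21.1% of all loci tested. For *Aurkc* and *Plk4* the margin was narrow. The lowest control and highest Mps1sKO values were 1.040 and 1.036 CPM for *Aurkc* and 2.38 and 2.35 CPM for *Plk4*. *Pkmyt1* alone had both Mps1sKO libraries above, as did 20.3% of loci. At an adjusted p below 0.05, 0 of the 10 passed with edgeR, as against 0.0292% of all loci that were lower at that threshold, and 5 had an unadjusted p below 0.05, as did 1912 of the 20561 loci. DESeq2 and limma-voom also gave 0, whereas 3 members passed without the filter on low counts and 1 (*Melk*) with a crossed replicate block. Those fits called 1.11% and 2.67% of all their loci in either direction. At the cut-offs of the study, a fold above 1.5 at an unadjusted p under 0.01, edgeR gave 0 lower members (0.681% of all loci) and DESeq2 gave 1, *Nek2*. The share of all loci past them with DESeq2 is not given here. At the relaxed cut-offs of the study, a fold above 1.2 at an unadjusted p under 0.05, 4 members were lower (*Melk*, *Aurka*, *Nek2* and *Plk4*) and 0 were higher, as against 4.95% and 3.09% of all loci. Without control replicate 2, the number lower at the relaxed cut-offs was 2 in place of 4.

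**Figure D1:**
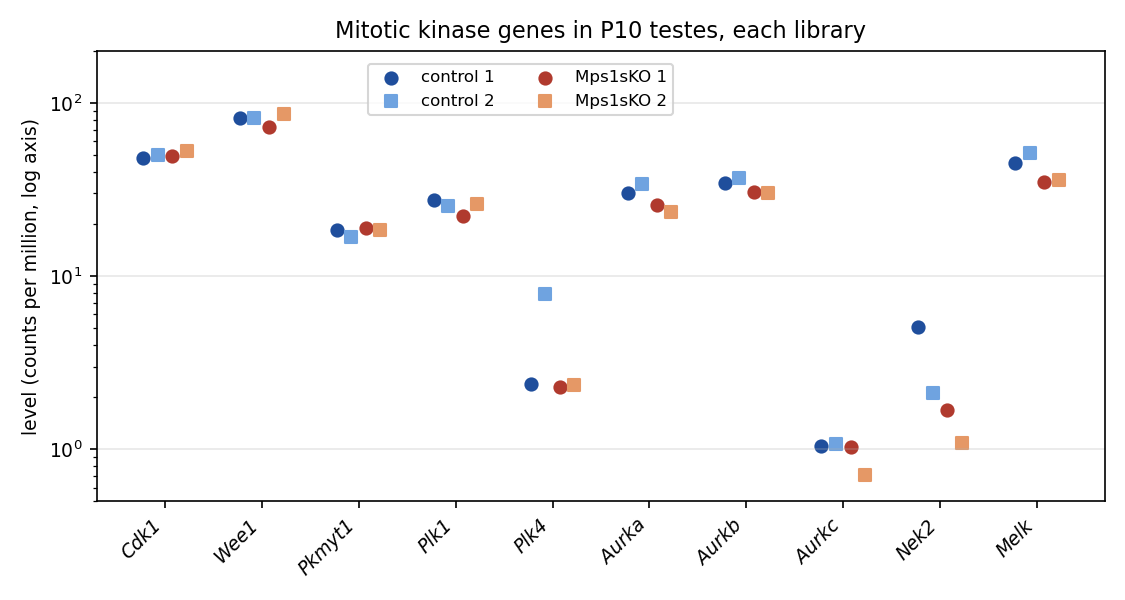
Level of each of the 10 kinase genes in each library, in CPM on a log axis, with control libraries in blue and Mps1sKO libraries in red and orange (circles for replicate 1, squares for replicate 2). *Melk* and *Aurka* show 2 control values above 2 Mps1sKO values, *Cdk1* and *Wee1* show mixed values, and the control libraries of *Plk4* and *Nek2* are far apart.

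*Cdk1* (ENSMUSG00000019942, chromosome 10 from 69335146 to 69352938, minus strand) encodes the kinase on which mitotic entry depends. Its levels were 48.1 and 50.2 CPM in control and 49.3 and 52.5 CPM in Mps1sKO libraries, so the groups overlapped. *Cdk1* had a log2 fold change of 0.05 (SE 0.0935, 95% interval from −0.17 to 0.27, adjusted p = 0.893 from edgeR). *Wee1* (chromosome 7 from 110122046 to 110143286), the nuclear inhibitor of CDK1, had 81.5 and 81.6 CPM in control and 72.9 and 85.7 CPM in Mps1sKO libraries. The control libraries were nearly equal and lay between the Mps1sKO libraries, and the log2 fold change was −0.04 (SE 0.104, 95% interval from −0.28 to 0.20, adjusted p = 0.932 from edgeR). Without Mps1sKO replicate 1 its sign turned, to 0.072. *Pkmyt1* (chromosome 17 from 23726336 to 23736735), which encodes the membrane-bound inhibitor of CDK1, had 18.4 and 16.8 CPM in control and 18.9 and 18.5 CPM in Mps1sKO libraries. The lower Mps1sKO value was close to the higher control value, and the log2 fold change was 0.09 (SE 0.119, 95% interval from −0.19 to 0.37, adjusted p = 0.835 from edgeR). The intervals of these 3 genes reach from −0.28 to 0.37 on the log2 scale. *Pkmyt1* shares 550 bases with *Paqr4* on the opposite strand, and *Wee1* lies inside the span of the antisense gene *1600010M07Rik*. The strandedness of the counting is not given in the sources used here, so reads from these overlaps cannot be assigned by strand. *1600010M07Rik* had at most 12 counts in a library, whereas *Paqr4* had between 194 and 266.

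Promoter sequence was looked up for the members in a RefSeq table of 250 bases before to 50 bases after each gene's start (GRCm38.p6), and 7 of the 10 members matched. It is shown here for 4 genes that span the range of the differences, *Cdk1* and *Plk1*, whose groups overlapped, and *Nek2* and *Melk*, whose groups did not. The motifs searched on both strands were TTTGAA (the CHR element through which the MuvB complex acts on late cell cycle genes), CCAAT (the CCAAT box bound by NF-Y) and the E2F core in the forms TTTCCCGC, TTTCGCGC, TTTGCCGC and TTTGGCGC. Capitals mark a match to TTTGAA or CCAAT, with ATTGG for CCAAT on the other strand, and each sequence reads 5′ to 3′ on the strand of the gene.
*Cdk1*, chr10:69352913-69353032, minus strand: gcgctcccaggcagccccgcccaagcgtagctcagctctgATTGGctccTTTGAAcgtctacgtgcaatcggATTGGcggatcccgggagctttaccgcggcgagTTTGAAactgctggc
*Plk1*, chr7:122159315-122159434, plus strand: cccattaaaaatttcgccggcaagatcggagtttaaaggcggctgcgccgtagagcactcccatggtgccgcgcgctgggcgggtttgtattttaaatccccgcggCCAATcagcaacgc
*Nek2*, chr1:191821353-191821472, plus strand: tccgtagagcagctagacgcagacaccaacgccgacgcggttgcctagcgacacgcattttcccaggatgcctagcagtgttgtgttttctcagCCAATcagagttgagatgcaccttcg
*Melk*, chr4:44300756-44300875, plus strand: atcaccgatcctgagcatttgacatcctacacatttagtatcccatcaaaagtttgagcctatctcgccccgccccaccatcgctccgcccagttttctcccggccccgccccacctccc

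The *Cdk1* window holds TTTGAA at positions −71 and −15 and CCAAT on the other strand at −208, −80 and −48, counted from the RefSeq start. *Plk1* has CCAAT at −14 and TTTGAA at position 31 after the start, and *Nek2* has CCAAT at −26 and at position 8. The *Melk* sequence ends at position −42, because the annotated gene begins after it, and its whole window holds none of the motifs. The *Nek2* and *Cdk1* sequences run up to the RefSeq start, and their last bases lie inside the annotated genes. Those genes begin at 191821444 and, on the minus strand, at 69352938. CCAAT of *Nek2* at −26 and TTTGAA of *Cdk1* at −15 are in that part. *Aurka*, whose letters are not shown, has CCAAT at −51 and −19 and TTTGAA at 33. Over the 7 matched members, TTTGAA was found in 3 windows (17.9% of the 32851 windows of this length in the table), CCAAT in 5 (37.4%) and the E2F core in 1, that of *Cdk1* (2.26%). Matches were found in *Cdk1* and *Plk1*, whose groups overlapped, and in *Aurka*, *Aurkc* and *Nek2*, whose groups did not. *Melk* and *Plk4*, whose groups did not overlap either, had none. The groups of *Aurkc* and *Plk4* were apart by a narrow margin only. The matches are descriptions of letters and not of binding.

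*Plk1* (chromosome 7 from 122159439 to 122169873) encodes the Polo kinase of mitotic entry, spindle formation and cytokinesis. Its levels were 27.4 and 25.5 CPM in control and 22.2 and 26.2 CPM in Mps1sKO libraries, and Mps1sKO replicate 2 lay between the control libraries. This gave *Plk1* a log2 fold change of −0.13 (SE 0.123, 95% interval from −0.41 to 0.16, adjusted p = 0.769 from edgeR), which was −0.25 without Mps1sKO replicate 2 and −0.013 without Mps1sKO replicate 1. The processed pseudogene *Plk-ps1* had between 78 and 116 counts and shares 0.81% of the 100-base windows of the longest *Plk1* coding transcript.

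*Plk4* (chromosome 3 from 40800019 to 40816883), which controls centriole number, was a low gene whose control libraries held 64 and 227 counts and whose Mps1sKO libraries held 53 and 63. These are 2.38 and 7.87 CPM in control and 2.29 and 2.35 CPM in Mps1sKO. Control replicate 2 stood alone, and the other 3 libraries were nearly equal. The log2 fold change was −1.15 (SE 0.490, 95% interval from −2.29 to −0.01, adjusted p = 0.536 from edgeR). Without control replicate 2 it was −0.04, and without control replicate 1 it was −1.76. The control libraries of *Plk4* differed 3.30-fold, which was matched or exceeded by 0.590% of the 3390 loci with a mean level within 2-fold of it, so the difference rests on 1 library.

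*Aurka* (chromosome 2 from 172356190 to 172370535, minus strand) encodes the Aurora kinase of centrosomes and spindle poles. It had 30.04 and 33.8 CPM in control and 25.8 and 23.3 CPM in Mps1sKO libraries, with no overlap, and the Mps1sKO mean was 76.9% of control. The log2 fold change was −0.38 (SE 0.116, 95% interval from −0.65 to −0.11, unadjusted p = 0.0117 and adjusted p = 0.494 from edgeR), and leaving out any 1 library gave values from −0.46 to −0.29. *Aurkb* (chromosome 11 from 69045647 to 69051664) encodes the kinase of the chromosomal passenger complex, which corrects attachments at centromeres and acts in cytokinesis. Its levels of 34.7 and 36.9 CPM in control and 30.6 and 30.1 CPM in Mps1sKO libraries did not overlap either. The log2 fold change was −0.24 (SE 0.0991, 95% interval from −0.47 to −0.01, unadjusted p = 0.0436 and adjusted p = 0.529 from edgeR), a fold change below 1.2. For *Aurkb*, leaving out any 1 library gave values from −0.29 to −0.19.

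*Aurkc* (chromosome 7 from 6995300 to 7003091) encodes the Aurora kinase of meiotic divisions, which can take the place of AURKB in the passenger complex. Its counts were 28 and 31 for the controls and 24 and 19 for Mps1sKO, or 1.04 and 1.07 CPM against 1.04 and 0.709 CPM. Control replicate 1 and Mps1sKO replicate 1 were nearly level. *Aurkc* had a log2 fold change of −0.29 (SE 0.333, 95% interval from −1.06 to 0.49, adjusted p = 0.810 from edgeR), and a difference of the size seen in *Aurka* was not detectable at this depth. It was −0.57 without Mps1sKO replicate 1 and −0.03 without Mps1sKO replicate 2. Of the 100-base windows of its longest coding transcript, 50.5% also occur in annotated pseudogenes, among them *Gm12463* with between 7 and 18 counts, so the counts of *Aurkc* are uncertain.

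*Nek2* (ENSMUSG00000026622, chromosome 1 from 191821444 to 191833050) encodes the kinase that releases the centrosome linker. Its counts were 137 and 61 for the controls and 39 and 29 for Mps1sKO, which are 5.09 and 2.12 CPM against 1.68 and 1.08 CPM. The groups did not overlap, but the lower control library was closer to the Mps1sKO libraries than to the other control library. The log2 fold change was −1.38 (SE 0.438, 95% interval from −2.40 to −0.37, unadjusted p = 0.0142 and adjusted p = 0.497 from edgeR), and the Mps1sKO mean was 38.4% of control. Without control replicate 1 the log2 fold change was −0.62, and without control replicate 2 it was −1.89. The control libraries differed 2.40-fold, a gap matched or exceeded by 1.49% of the 3616 loci of like level, and the Mps1sKO libraries differed 1.55-fold. *Nek2* is among the genes that the study lists as downregulated, which were chosen on these libraries.

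*Melk* (ENSMUSG00000035683, chromosome 4 from 44300876 to 44364675) encodes the maternal embryonic leucine zipper kinase, which is expressed in dividing and progenitor cells. Its counts were 1215 and 1485 for the controls and 813 and 961 for Mps1sKO, or 45.1 and 51.5 CPM against 35.1 and 35.9 CPM. The groups were separate by more than the spread within each of them, and the Mps1sKO mean was 73.4% of control. *Melk* had the smallest p of the 10 members, with a log2 fold change of −0.45 (SE 0.104, 95% interval from −0.69 to −0.20, unadjusted p = 0.0030 and adjusted p = 0.494 from edgeR). Leaving out any 1 library gave *Melk* values from −0.54 to −0.35.

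**Figure D2:**
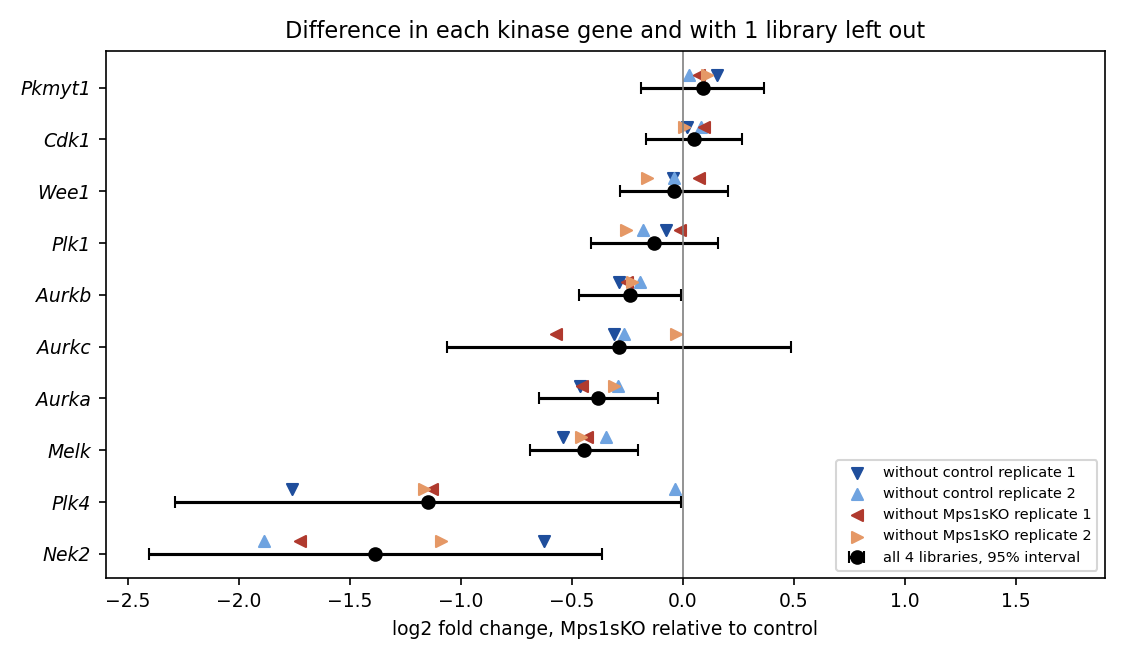
Log2 fold change of each kinase gene, Mps1sKO relative to control, with all 4 libraries (black, bars are 95% intervals) and with 1 library left out each time (coloured triangles). The triangles of *Melk*, *Aurka* and *Aurkb* stay close to the black point, whereas those of *Plk4* spread from −1.76 to −0.04 and those of *Nek2* from −1.89 to −0.62.

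Levels of different genes were compared only per length, with the deposited FPKM values (counts divided by gene length and library size). In control testes *Wee1* was the highest member with a mean of 23.7 FPKM, followed by *Melk* with 16.1. *Aurka*, *Aurkb* and *Plk1*, with 12.5, 12.1 and 12.0 FPKM, did not differ from each other beyond the spread of the control libraries. *Cdk1* had 9.89 and *Pkmyt1* 4.79 FPKM. *Nek2*, *Plk4* and *Aurkc* were all under 1 FPKM, at 0.791, 0.742 and 0.689, and overlapped each other. In Mps1sKO testes *Wee1* and *Melk* again had the highest means, at 23.1 and 11.9 FPKM, but *Melk* and *Plk1*, with 10.97, overlapped. *Aurka*, with 9.66 FPKM, then overlapped *Cdk1* and *Plk1*. When levels were divided by the longest coding transcript in place of the deposited gene length, 6 of the 10 members stayed at the same place in the control order, and *Aurkb* was the second.

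Ratios within a library do not depend on how the libraries were scaled to each other. The ratio of *Cdk1* to the sum of *Wee1* and *Pkmyt1*, in FPKM, was 0.338 and 0.357 in control and 0.376 and 0.353 in Mps1sKO libraries, so the level of this kinase relative to its inhibitors overlapped between the groups. The ratio of *Melk* to *Cdk1* was 1.56 and 1.70 in control and 1.18 and 1.13 in Mps1sKO libraries, which did not overlap. That of *Plk1* to *Cdk1* was 1.28 and 1.14 against 1.01 and 1.12, and its groups were separated by a narrow margin. *Aurka* relative to *Aurkb* had ratios of 1.01 and 1.07 in control and of 0.981 and 0.901 in Mps1sKO libraries. *Aurkc* was 5.80% and 5.63% of *Aurkb* in control and 6.56% and 4.55% in Mps1sKO libraries, with overlap.

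The genes that act with these kinases were taken from 7 lists with 72 genes, all of which were tested. Their log2 fold change was negative for 56 and positive for 16, with a median of −0.16. At the relaxed cut-offs 19 were lower and 0 were higher, as against 4.95% and 3.09% of all loci. Without control replicate 2 the 19 became 3, and without Mps1sKO replicate 2 they became 10. Both Mps1sKO libraries lay below both control libraries for 41 of the 72 genes and above for 6, as they did for 21.1% and 20.3% of all loci. Only *Ttk* passed an adjusted p of 0.05 with edgeR, where 0.0292% of all loci were lower. Of the 72 genes, 22 had an unadjusted p below 0.05 with edgeR, where 1912 of the 20561 loci did. The *Ttk* call was lost with the DESeq2 size factors, limma-voom, a minimum of 10 counts, the replicate block and annotated genes only.

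Among 17 cyclins, phosphatases and cofactors of CDK1, 6 were lower at the relaxed cut-offs, as were 4.95% of all loci, although *Cdk1* itself was not. *Ccnb1*, which encodes cyclin B1, had 110.0 and 115.5 CPM in control and 90.8 and 92.6 CPM in Mps1sKO libraries, without overlap. Its log2 fold change was −0.30 (unadjusted p = 0.0094 from edgeR). *Mastl*, the Greatwall kinase that keeps CDK1 substrates phosphorylated, had a log2 fold change of −0.43, and *Cks2*, a small subunit of the CDK1 complex, one of −0.33. Those of *Ccna2* (cyclin A2) and *Cdc25c* (a CDC25 phosphatase) were −0.28 and −0.35. The remaining gene of the 6 was *Ccnb2*, with −0.28, which was −0.18 without Mps1sKO replicate 1. That of *Cdc25c* was −0.24 without Mps1sKO replicate 2. Without control replicate 2, *Ccnb1*, *Cks2* and *Ccna2* each had −0.26, a fold change below 1.2. *Ccna2* had −0.22 without Mps1sKO replicate 1. When any 1 library was left out, *Mastl* ranged from −0.58 to −0.30. The CDC25 genes *Cdc25a* and *Cdc25b* had log2 fold changes of −0.07 and 0.03 and did not pass, and the median of the whole list was −0.07. Both *Cdc25a* and *Cdc25b* were singled out after their values were seen.

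Of 10 partners of the Polo kinases, 9 had a negative log2 fold change, with a median of −0.19. *Stil*, a centriole assembly factor bound by PLK4, was the only gene of this list past the relaxed cut-offs, with 27.8 and 31.8 CPM in control, 25.9 and 22.4 CPM in Mps1sKO libraries and a log2 fold change of −0.31. Leaving out replicate 2 of either group gave −0.21. All 7 partners of the Aurora kinases had a negative log2 fold change, with a median of −0.24. At the relaxed cut-offs 3 of them were lower, as were 4.95% of all loci. These were *Haspin*, the histone kinase that recruits the passenger complex, with a log2 fold change of −0.40, and the shugoshin genes *Sgo1* and *Sgo2a*, which protect cohesion at centromeres, with −0.32 and −0.29. Without control replicate 2, *Sgo1* and *Sgo2a* had −0.24 and −0.25, and without Mps1sKO replicate 2 they had −0.21 and −0.24. Each of these values is a fold change below 1.2. *Haspin* had −0.30 without control replicate 1.

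The 8 partners of NEK2 and of the centrosome linker were split evenly between 4 negative and 4 positive log2 fold changes, with a median of −0.01. The exception was *Kif11*, the spindle kinesin Eg5, with 11.1 and 11.3 CPM in control and 5.87 and 7.95 CPM in Mps1sKO libraries. Its log2 fold change was −0.69 (unadjusted p = 0.0054 and adjusted p = 0.494 from edgeR), and it also passed the stricter cut-offs. *Kif11*, like *Nek2*, is among the genes the study chose on these libraries. Of 11 transcriptional regulators of mitotic genes (FOXM1, MYB and MuvB), 6 were negative and 5 positive with a median of −0.04, and 0 passed the relaxed cut-offs.

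Among 5 other kinases of M phase, all had a negative log2 fold change. Besides *Ttk*, the checkpoint kinase genes *Bub1* and *Bub1b* were lower at the relaxed cut-offs, with log2 fold changes of −0.40 and −0.37. In a list of 14 S-phase and proliferation genes, which mark dividing cells more broadly, 13 were negative with a median of −0.16. *Cdc6*, a loader of the replicative helicase, had a log2 fold change of −0.50, and *Top2a*, the topoisomerase of dividing cells, one of −0.39. *Rrm2*, *Mcm5* and *Mki67* had −0.35, −0.33 and −0.30, so 5 genes of this list were lower at the relaxed cut-offs, as were 4.95% of all loci. Without control replicate 2, *Top2a*, *Rrm2*, *Mcm5* and *Mki67* had −0.23, −0.20, −0.17 and −0.15, and the median of the list was −0.10. Without Mps1sKO replicate 2, *Rrm2* and *Mcm5* had −0.23 and −0.19 and *Bub1b* had −0.22, whereas *Bub1b* had −0.24 without control replicate 2.

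**Figure D3:**
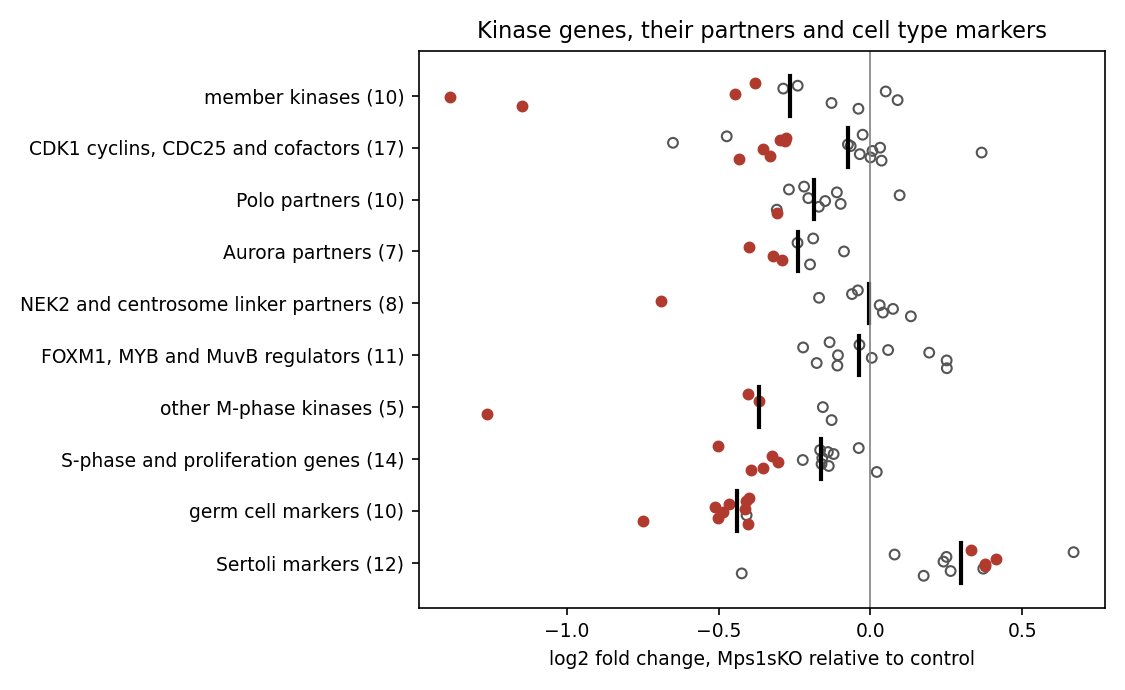
Log2 fold change of each gene, Mps1sKO relative to control, in the kinase list, the 7 partner lists and 2 marker lists, with the number of genes tested in parentheses. Filled red points passed a fold change of 1.2 with an unadjusted p below 0.05, open points did not, and black bars are medians, from −0.44 for germ cell markers to 0.30 for Sertoli markers.

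In bulk tissue, fewer cells of a type and less RNA per cell cannot be told apart, so marker lists were set beside these values. All 10 germ cell markers had both Mps1sKO libraries below both control libraries, as did 21.1% of all loci tested. The median log2 fold change of these markers was −0.44. Their summed level was 1384 and 1667 CPM in control and 1282 and 968 CPM in Mps1sKO libraries, which is 73.7% of control. *Ddx4*, a helicase of germ cells, had 195.8 and 220.8 CPM in control and 174.8 and 138.8 CPM in Mps1sKO libraries. All 22 meiotic prophase markers were negative (median −0.61, summed level 66.2% of control), *Sycp3* of the synaptonemal complex with −0.53, and so were 6 markers of differentiating spermatogonia (median −0.51), *Kit* with −0.24. *Kit* had −0.064 without control replicate 2 and −0.019 without Mps1sKO replicate 2, but −0.39 without control replicate 1 and −0.49 without Mps1sKO replicate 1. The 12 undifferentiated spermatogonia markers were split, 6 negative and 6 positive, with a median of −0.06 and a summed level of 86.9% of control. Of these, *Zbtb16*, *Lin28a* and *Sall4* were lower at the relaxed cut-offs, with −0.36, −0.35 and −0.42, as were 4.95% of all loci. Of 13 Sertoli markers 12 were tested and 11 were positive, with a median of 0.30. The summed Sertoli level was 6901 and 6991 CPM in control and 8641 and 8324 CPM in Mps1sKO libraries, or 122% of control, and the log2 fold change of *Sox9* was 0.26. Without control replicate 2 the Sertoli median was 0.20, the meiotic prophase median −0.39 and *Sox9* 0.10, and without Mps1sKO replicate 2 the germ cell median was −0.26 and *Sox9* 0.13. Medians were 0.18 for Leydig, −0.10 for peritubular myoid, −0.08 for macrophage and 0.08 for endothelial markers. No marker was at 0 in all 4 libraries, but this sets no minimum level and does not by itself show that a cell type was present. The part of cell composition in the kinase values was not tested.

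Set against the summed germ cell markers, the kinases did not move as one. *Cdk1* was 3.48% and 3.01% of that sum in control and 3.84% and 5.43% in Mps1sKO libraries, and *Pkmyt1* was likewise higher in both Mps1sKO libraries. The other 8 overlapped, among them *Melk* with 3.26% and 3.09% in control and 2.74% and 3.71% in Mps1sKO libraries, whose mean was 101% of control. The mean for *Aurka* was 105% of control. Set against the summed Sertoli markers, all 10 were lower in both Mps1sKO libraries, from *Nek2* at 31.2% of control to *Pkmyt1* at 87.1%. These are ratios to sums that themselves differed between the groups, at 73.7% of control for germ cell and 122% for Sertoli markers. A gene of equal level in every library is therefore higher against the first and lower against the second in both Mps1sKO libraries. The direction of such a ratio thus says little about the kinase itself.

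**Figure D4:**
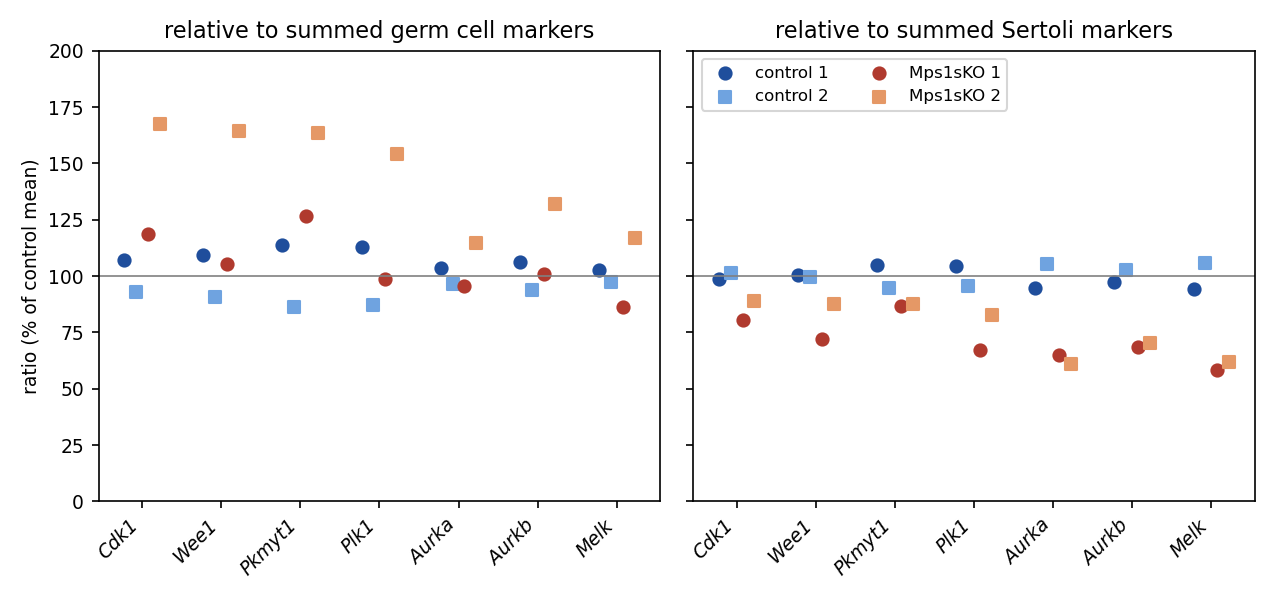
Level of the 7 kinase genes with more than 10 CPM relative to the summed germ cell markers (left) and the summed Sertoli markers (right) in each library, as a percentage of the control mean, with control in blue and Mps1sKO in red and orange. Against germ cell markers *Melk* and *Aurka* lie on both sides of 100 and *Cdk1* and *Pkmyt1* above the control values, whereas against Sertoli markers all 7 lie below the control values. In the Mps1sKO libraries the germ cell sum was lower and the Sertoli sum higher than in control.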

How the data were processed

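mRNA libraries were made from whole testes with the NEBNext Ultra kit and sequenced as paired-end reads on a NovaSeq. The authors deposited 1 table with counts per locus, which were not normalized, and FPKM values, which divide each count by the gene length and a library size. The submitters' processing notes name HISAT2 2.0.5, featureCounts, DESeq2 1.16.1 and mm10. Strandedness is not given in the sources used here. The identifiers and positions of all 10 members matched GENCODE M21 (GRCm38).

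Samples were grouped by genotype. In R 4.3.3, edgeR 4.0.16 filtered the counts (filterByExpr), scaled them (TMM) and gave the two-sided quasi-likelihood test (common biological coefficient of variation 0.106, prior degrees of freedom 5.64). SE is the log2 fold change divided by the square root of F. P-values are for the difference between the groups, judged against the spread between libraries of a group. The test draws that spread of each gene toward the trend of all loci tested. Neither the labels nor the methods name a batch. Overlaps and promoters were read with Python 3.11.15 and pandas 2.3.3. The test scripts were tested on simulated data.

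The members and lists were chosen with earlier results of these data known. Named were all members, *Ttk*, up to 5 genes per partner list past the relaxed cut-offs by p, and *Ddx4*, *Kit*, *Sycp3* and *Sox9*. Other genes were chosen after their values were seen. Alternatives were DESeq2 1.42.0 and its size factors, library size only, no filter, at least 10 counts, limma-voom (limma 3.58.1), robust dispersion, a replicate block, annotated genes and each library left out.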

Additional observations from a re-analysis of the deposited data

How the results depend on the processing

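The median of the 10 kinases (−0.26) moved from −0.34 to −0.19 when any 1 library was left out. *Plk4* then ranged from −1.76 to −0.04, *Nek2* from −1.89 to −0.62 and *Melk* from −0.54 to −0.35. *Wee1* ranged from −0.16 to 0.072, with the sign turned without Mps1sKO replicate 1. Of the 72 partner genes 3 to 23 were then lower at the relaxed cut-offs in place of 19, with 3 without control replicate 2 and 10 without Mps1sKO replicate 2, and 0 to 2 were higher. DESeq2 put 1 member past the stricter cut-offs. For this and every other alternative fit, the share of all loci past the stricter or relaxed cut-offs is not given here. Without the filter on low counts, 3 members (*Plk4*, *Nek2* and *Melk*) and 5 partner genes passed an adjusted p of 0.05. There 2 members passed the stricter cut-offs. That fit called 1.11% of all 35262 loci at that adjusted p, against 0.0292% in the fit reported. Its prior degrees of freedom were infinite, against 5.64, so the spread of each single gene was replaced by the common trend. *Ttk*, the 1 partner gene called at an adjusted p below 0.05, was lost with the DESeq2 size factors, limma-voom, a minimum of 10 counts per library, the replicate block and annotated genes only, which left 0. The place of 6 of the 10 members in the order of levels held with transcript lengths.

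The replicate numbers are not stated to pair the mice. Deviations of same-numbered libraries correlated at −0.24, and with 2 groups of 2 the crossed value is its mirror image, 0.24. With the replicate number as a block, 1 member passed the stricter cut-offs and 8 partner genes were lower at the relaxed ones. With the crossed replicate block, added after the data were seen, 1 member (*Melk*) and 10 partner genes passed an adjusted p of 0.05, as did 2.67% of all loci in that fit, 1 member passed the stricter cut-offs, and 1 partner gene was higher at the relaxed ones. The adjusted p of *Melk* ranged from 0.025 to 0.915 over the settings that keep all libraries. *Aurkc*, with at most 31 counts in a library, is limited by depth, and *Plk4* and *Nek2* by control libraries that differ.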

Other observations

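Relatives of the 10 kinases were taken by family name after the data were seen. Among them, *Cdk7*, *Nek6*, *Nek7*, *Nek9*, *Plk2* and *Plk3* were also counted with the partner genes above. Of 18 other cyclin-dependent kinase genes, 13 had a positive and 5 a negative log2 fold change, with a median of 0.05, and 0 had an unadjusted p below 0.05 with edgeR. *Cdk2*, a kinase of S phase and meiosis, had 0.06, and the G1 kinase genes *Cdk4* and *Cdk6* had 0.13 and −0.09. Of 10 other NEK genes, 6 were negative and 4 positive with a median of −0.14. At the relaxed cut-offs 2 were lower, as were 4.95% of all loci. These were *Nek10* with −0.72 and *Nek3* with −0.40. *Nek10* had few counts, 36 and 49 in control and 24 and 22 in Mps1sKO libraries. *Nek3* had 9.62 and 12.3 CPM in control and 8.76 and 7.84 CPM in Mps1sKO libraries. The other Polo kinase genes *Plk2*, *Plk3* and *Plk5* were all negative, and 0 of them had an unadjusted p below 0.05.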
